A study of Homo sapiens with 6 samples.

Results

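The zinc finger genes of chromosome 19 with a numbered ZNF name were followed in LM3 cells, an established human hepatocellular carcinoma (HCC) cell line, after stable knockdown of ZNF706. Members were all genes of the deposited expression table that lie on chromosome 19 and whose symbol is ZNF followed by a number and at most 1 letter. They were 221 of the 33007 genes in the table. By GENCODE release 29, 212 of them are protein coding and the others are pseudogenes. RNA-seq was performed in 3 control samples of LM3 cells carrying the empty vector and in 3 samples of LM3 cells carrying an shRNA against ZNF706, both made by lentiviral transduction and puromycin selection. The labels name no separate hairpins, clones or cultures within a group, so the p-values measure the spread between these samples, which may be technical.

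C2H2 zinc finger proteins bind DNA through tandem fingers, and many of those encoded on chromosome 19 also carry a KRAB domain. The KRAB domain recruits the corepressor TRIM28, which brings the histone methyltransferase SETDB1 and heterochromatin proteins to the bound site. The genes arose by repeated tandem duplication, lie in clusters along the chromosome, and are best known for silencing transposable elements. Near-identical copies can share reads, and the way in which the counting resolved such reads is not given in the sources used here, so values of single paralogs are uncertain to that extent.

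ZNF706 itself (ENSG00000120963), which is not a member because it lies on chromosome 8, had 51.9, 55.1 and 54.7 CPM (counts scaled to library size, with TMM factors) in control and 33.5, 30.8 and 32.8 CPM in knockdown samples. The groups did not overlap. The log2 fold change of ZNF706 was -0.73 (standard error, SE, 0.0505) with an adjusted p of 3.7e-05, from the quasi-likelihood test of edgeR adjusted by the Benjamini-Hochberg method, which is the test behind every adjusted p given here unless another is named. Transcript remained in the knockdown cells.

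Counts on all genes came to 62684076, 64713764 and 63054445 in control and 68548419, 65861994 and 69057423 in knockdown samples. Members took a small share of them, 0.1197%, 0.1195% and 0.1171% in control and 0.1355%, 0.1296% and 0.1277% in knockdown samples. Of the 221 members, 155 had enough counts to be tested and 66 did not. Among the 66, 15 had at most 3 counts in every sample, 10 of them with no count at all, and none exceeded 37 counts in a sample. The tested members were weakly expressed, with a median of 280 counts per sample and a range of 8.17 to 7500. FPKM, which corrects for gene length, was highest for ZNF146 (24.2 on average over the 6 samples), ZNF114 (9.10), ZNF428 (6.36), ZNF787 (6.08) and ZNF317 (5.70). ZNF146 therefore stood well above every other member on a length-corrected scale.

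Most members sat slightly higher in ZNF706 knockdown cells than in control cells, but few of them individually passed the test. At an adjusted p below 0.05 (edgeR), 13 members rose and 2 fell out of 155, which is 9.68% of the members. The 13 include ZNF837, which had enough counts to be tested only in its knockdown samples. Over all 18390 genes tested, 22.8% were called, 10.4% higher and 12.4% lower. By adjusted p, the share of members called was not above the background in either direction. Scaling by library size alone gave 16 members higher and 1 lower, while the calls over all genes went from 1906 higher and 2286 lower to 2742 higher and 1518 lower. The study applied its criteria to DESeq2 results, whereas here they were applied to the edgeR fit. They were p below 0.05, taken as unadjusted, and a log2 fold change of 0.3 or more in size. By these criteria 21 members were higher (13.5%) and 1 lower (0.645%), against 9.61% and 5.88% of all genes. With that rule the share of members higher was above the background and the share lower below it.

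The log2 fold change was above 0 for 116 of the 155 members (74.8%), against 51.3% of all genes tested. Its median was 0.16 over the members (interquartile range 0.00 to 0.36, lowest -0.63, highest 1.99) and 0.01 over all genes. A gene was tested if it reached 10 counts, at the median library size, in at least 3 samples. Of the 155 members, 146 met this in either group alone, and 107 of these 146 were above 0 with a median of 0.15. Another 6 met it only in the knockdown samples, so the filter itself favoured a rise in them, and 3 met it only with samples of both groups. Over all genes, 801 of the 887 that met it only in the knockdown samples were above 0. For 39 members every knockdown sample was above every control sample (25.2%, where the background was 19.7% of all genes). The excess over the background did not hold at every abundance. Among genes with a mean count of 200 to 1000 the share was 28.6% of members and 28.9% of all genes. At 1000 counts or more it was lower for members than for all genes, and below 200 counts it was higher. For 2 members every knockdown sample was below every control sample (1.29%, where the background was also 19.7%). Against the control mean, the median member was higher by 0.22, 0.14 and 0.14 on the log2 scale in knockdown samples 1, 2 and 3, so the shift was present in each of them and largest in the first. The summed level of all 221 members was 1212, 1216 and 1203 CPM in control and 1325, 1272 and 1260 CPM in knockdown samples, an increase of 6.22%. In RNA from bulk cultures, a change in the number of cells that express a gene and a change in the RNA per cell cannot be told apart.

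**Figure D1:**
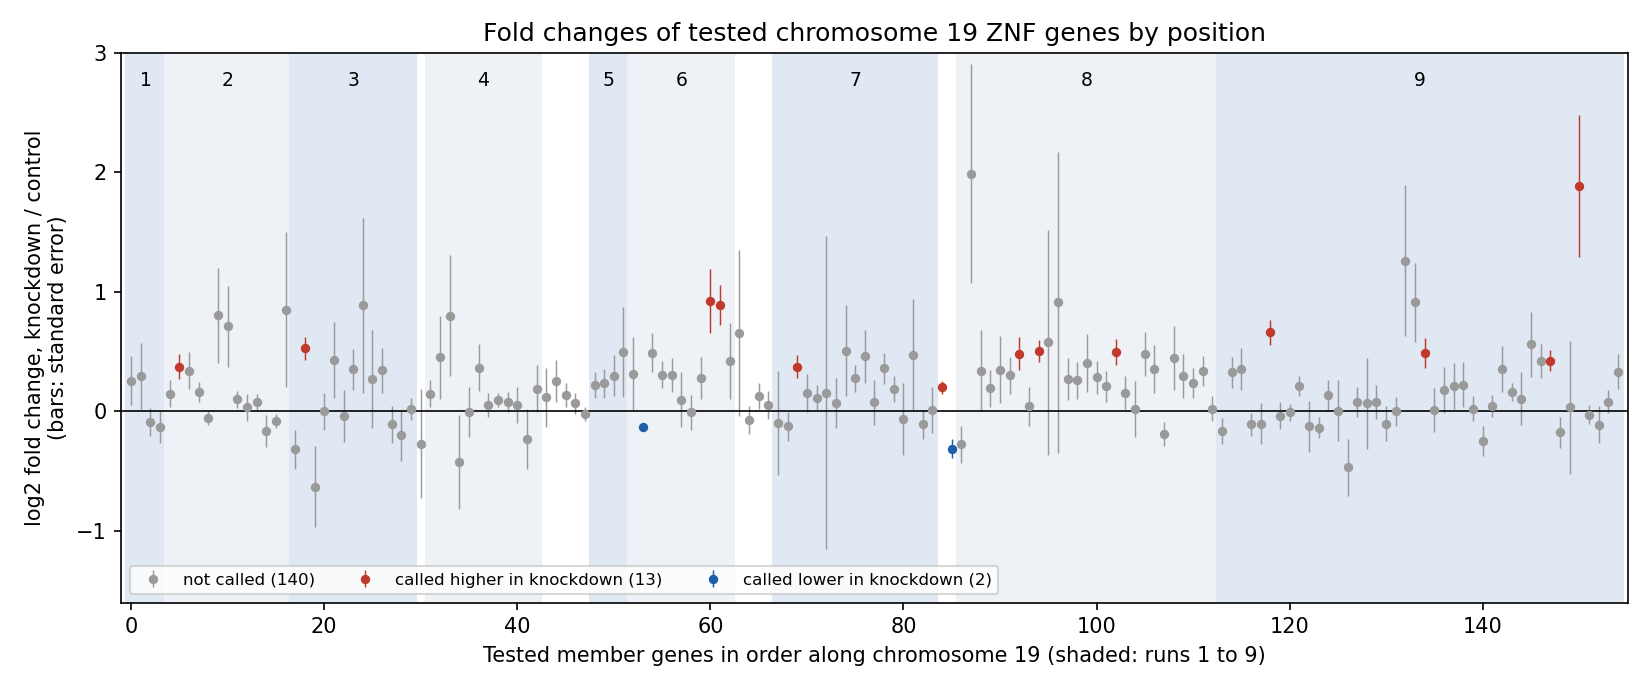
Log2 fold change (knockdown over control) of the 155 tested members in their order along chromosome 19, with bars for the SE and shading for the 9 runs of neighbouring members. Most points lie slightly above 0 in most of the runs, and the 13 members called higher (red) and 2 called lower (blue) are scattered over several runs.

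ZNF genes on other chromosomes and other chromosome 19 genes were set beside the members. Of the 218 tested ZNF genes on other chromosomes, 27 rose (12.4%) and 20 fell (9.17%), 60.6% had a log2 fold change above 0 and the median was 0.06. Of the 988 tested chromosome 19 genes that are not members, 122 rose (12.3%) and 82 fell (8.3%), 57.3% were above 0 and the median was 0.06. The members were called less often than either group in both directions, with 8.39% higher and 1.29% lower. The members were also less abundant than either group, with a median of 280 counts against 717 and 691, and across the whole table low counts went with fold changes above 0. The groups were therefore compared within ranges of the mean count. Among genes with a mean count of 200 to 1000, the median was 0.15 for 77 members, 0.10 for 93 ZNF genes on other chromosomes and 0.10 for 3063 genes in all. In that range 9 members rose (11.7%) and 0 fell, while 16.8% of all genes rose and 4.83% fell. Among genes with a mean count of 1000 or more, the medians were 0.06 for 20 members, -0.03 for 87 ZNF genes on other chromosomes and -0.04 for 8512 genes in all. Between 50 and 200 counts they were 0.30 for 40 members, 0.15 for 26 ZNF genes on other chromosomes and 0.15 for 2550 genes in all. For other chromosome 19 genes the medians were 0.16, 0.12 and 0.00 in the ranges from 50 to 200, 200 to 1000 and 1000 or more, and 18.5% of them rose between 200 and 1000 counts. No median is given below 50 counts, where 6 of the 18 tested members reached the filter through the knockdown samples alone and 0 through the control samples alone.

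**Figure D2:**
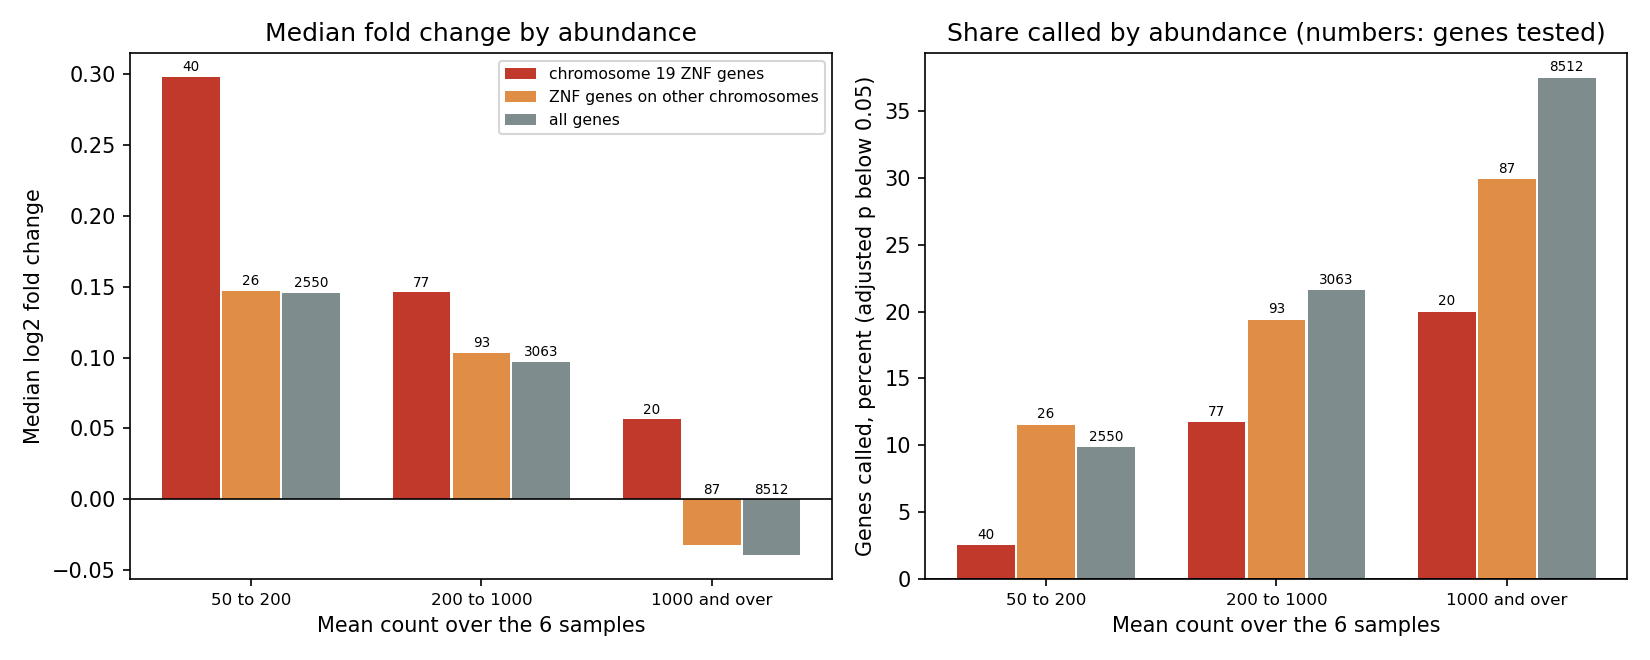
Median log2 fold change (left) and percent of genes called at an adjusted p below 0.05 (right) by the mean count over the 6 samples, for members, ZNF genes on other chromosomes and all tested genes, in 3 ranges from 50 counts up, with the number of genes above each bar. The members' median falls from 0.30 between 50 and 200 counts to 0.06 at 1000 counts and over, and the members' share called is below that of all genes in each of the 3 ranges.

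Base composition also went with the size of the difference. The members were split by the GC content of their longest transcript. The third of them with the lowest GC content (34.1% to 41.1%) had a median of 0.28 on the log2 scale with 46 of 52 above 0, the middle one (41.2% to 45.7%) 0.15 with 37 of 51, and the one with the highest (45.8% to 71.1%) 0.07 with 33 of 52. Over all tested genes in the same GC ranges the order was the opposite, with medians of -0.07, -0.03 and 0.06. Within a shared range of GC content (40.4% to 47.4%) and mean count (134 to 617), 28 of 38 members were above 0 (median 0.13), as were 20 of 24 ZNF genes on other chromosomes (median 0.19) and 59.1% of 651 genes that are neither (median 0.08). In this range the ZNF genes on other chromosomes were not below the members. When the trend of each library with abundance was removed by cyclic loess, an alternative chosen after seeing the data, the members' median was 0.085 with 93 of 155 above 0 and that of all genes was -0.01. The direction held at a smaller size. The part that abundance plays in the shift was not tested beyond these values.

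By position, members were grouped into runs, with a new run wherever the next member lay more than 1 Mb away. This gave 9 runs of at least 5 members. The other 14 members, alone or in runs of fewer than 5, were pooled and are called isolated here. Among the runs with more than 10 tested members, the run at 51.57 to 53.58 Mb had the highest share above 0. Of its 36 members 27 were tested, 25 of these had a log2 fold change above 0, 3 rose and 0 fell, and the median was 0.30. The share called higher was 11.1%, near the 10.4% of all genes tested. Some of the 27, such as ZNF350, could pass the filter through the knockdown samples alone. With a minimum mean count of 50, where no member did so, 22 of 24 were above 0 and the median was 0.30. The summed level of all members of the run was 135.9, 131.0 and 126.1 CPM in control and 166.1, 151.6 and 147.6 CPM in knockdown samples, 18.4% higher with no overlap between the groups. A sum over the run does not change where reads are only divided between paralogs inside it. Reads that were discarded, counted more than once or shared with genes outside the run could still change it, which was not tested. The 10 tested genes of the same interval that are not members had a median of 0.19, with 7 above 0 and 1 called higher. After cyclic loess the median of the run was 0.18, with 22 of 27 above 0. Leaving out each sample in turn kept the median between 0.22 and 0.36.

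The run at 34.54 to 34.96 Mb had few members but the largest relative increase of its sum. Its 6 members summed to 18.08, 16.38 and 15.07 CPM in control and 19.53, 19.83 and 19.75 CPM in knockdown samples, an increase of 19.4% with no overlap, although none of its 4 tested members was called (median 0.27, and 0.15 after cyclic loess). The 2 tested genes there that are not members had a median of 0.37, at a median mean count of only 41.2. The run at 43.53 to 45.08 Mb, with 25 members, summed to 76.31, 75.23 and 75.65 CPM against 82.57, 86.88 and 82.49 CPM, an increase of 10.9%. There the 23 tested genes of the same interval that are not members had a median of -0.13, with 0 higher and 4 lower, while the 17 tested members had a median of 0.15 (0.06 after cyclic loess, with 10 above 0, and 0.08 and 0.09 without control replicates 1 and 3). The largest run, at 55.48 to 58.48 Mb near the chromosome end, summed over its 56 members to 290.9, 294.0 and 292.1 CPM against 325.4, 311.5 and 313.1 CPM, an increase of 8.34%. With 42 members tested, its median was only 0.08, 29 were above 0, and 4 rose (9.52%, against 10.4% of all genes). The 4 include ZNF837, which reached the filter only through its knockdown samples. Without knockdown replicate 1 the median was 0.04 with 23 of 43 above 0, and without knockdown replicate 2 it was 0.13. After cyclic loess its direction turned, with a median of -0.02 and 18 of 42 above 0. The 30 tested genes of the same interval that are not members had a median of 0.12, above that of the members, with 4 higher and 1 lower. Their median mean count was 152, against 387 for the tested members.

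In the other 5 runs the summed levels of the groups overlapped. The run at 36.18 to 37.82 Mb had a median of 0.31 over 11 tested members, 9 of them above 0, with 2 higher and 1 lower. These are 18.2% and 9.09%, against 10.4% and 12.4% of all genes. Its sum changed by -1.11%, and ZNF146, which fell, made up 79.4% of the sum in control samples. The 5 tested genes of its interval that are not members had a median of 0.86, above that of the members, and none was called. Their median mean count was 35.8, against 213 for the tested members, in the range below 50 counts for which no group median is given above. The runs at 2.82 to 2.94, 11.48 to 12.64 and 19.67 to 21.85 Mb had medians of 0.08, 0.02 and 0.09, and the run at 7.07 to 9.79 Mb had 0.15. These medians depended on single samples. With a sample left out they ran from 0.04 (without control replicate 2) to 0.13 (without knockdown replicate 1), from 0.01 (without knockdown replicate 3) to 0.12 (without knockdown replicate 2), from 0.01 (without control replicate 2) to 0.13 (without knockdown replicate 3), and from 0.08 (without control replicate 1) to 0.22 (without control replicate 2). The median of the first of these turned to -0.03 after cyclic loess, to -0.09 with no filter and to -0.06 on FPKM, and that of the second fell just below 0 with no filter. The tested genes that are not members were 1, 4, 4 and 40 in these 4 intervals, with medians of 1.58, 0.04, -0.06 and 0.07. With a gap of 0.5 Mb in place of 1 Mb there were 10 runs, and the run at the chromosome end was divided into 14 members with a median of -0.02 and 42 members with a median of 0.08.

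**Figure D3:**
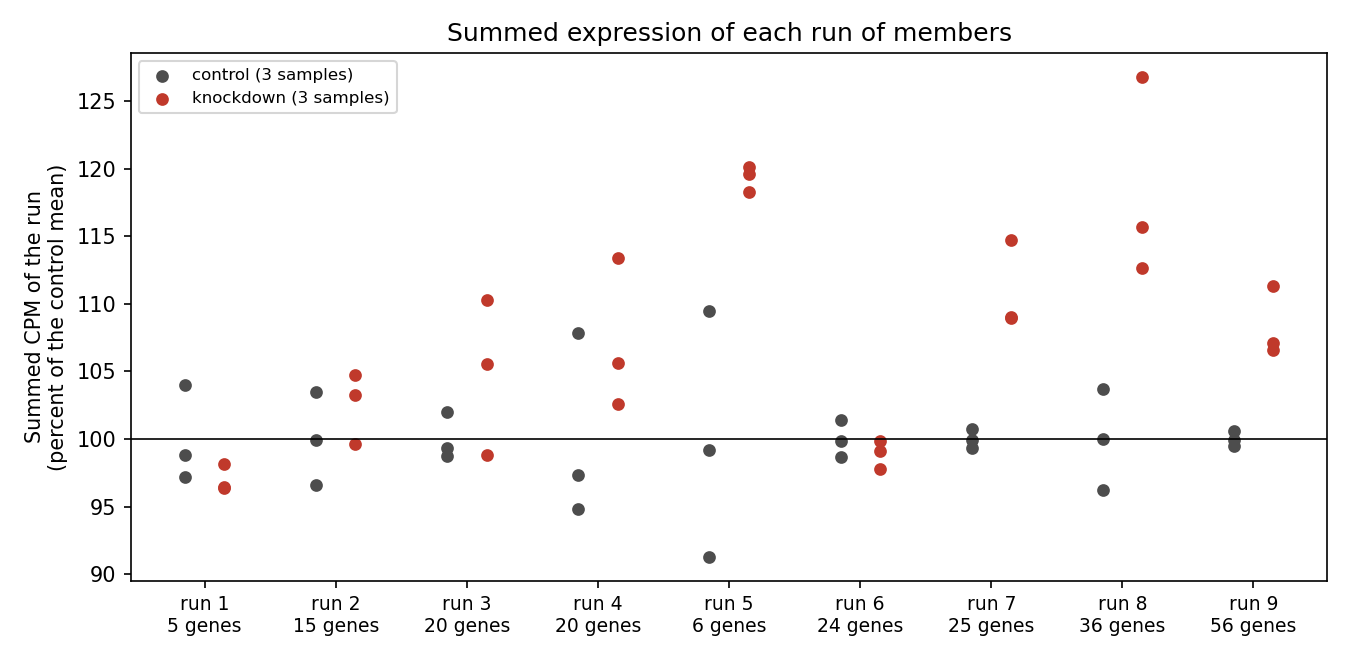
Summed CPM of the members of each run in each sample, as a percent of the mean of the 3 control samples (grey, control; red, knockdown). The knockdown samples lie above all control samples in runs 5, 7, 8 and 9 and overlap with them in the other 5.

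Promoters were read to see what sequence the members share. RefSeq promoters (GRCh38.p14, 250 bases before to 50 after the start) were matched by symbol for 189 of the 221 members. CCGGAA, the core of ETS family sites, was found on either strand in 105 of them (55.6%), against 17.2% of all 35116 promoters in the table. Among tested genes it was in 55.9% of 136 members, 49.1% of 175 ZNF genes on other chromosomes, 25.9% of 672 other chromosome 19 genes and 28.3% of all 11359. Where present, the match nearest to the start lay at a median of 16 bases before it. The motif did not go with a larger difference. The members that hold it had a median of 0.14 (60 of 76 above 0) and those that do not 0.21 (42 of 60 above 0). It was in 5 of the 11 members called higher that had a promoter in the table, and these 5 matches are printed here, 30 bases each on the strand of the gene, with the match in capitals (TTCCGG is CCGGAA on the other strand).
ZNF320, chr19:52897671-52897700, minus strand: attggcatagacCCGGAAgcggatggcagg
ZNF616, chr19:52139917-52139946, minus strand: tttccgtcactcCCGGAAgcagattgcgcc
ZNF544, chr19:58228903-58228932, plus strand: gtccgccggccaCCGGAAgcaccgccattg
ZNF550, chr19:57559841-57559870, minus strand: caggggcgggacTTCCGGcctcgctggcgt
ZNF580, chr19:55640979-55641008, plus strand: gggctcgcgcgcTTCCGGccggcgcctttt
In 4 of the 5 the match lies just after the RefSeq start of the promoter and in ZNF580 just before it. For ZNF544 and ZNF580 the RefSeq start lies inside the span given below for the gene. The motifs CACGTG (E-box) and TGACGTCA (CRE) and the longer exact motifs of NRF1, YY1 and ZNF143/THAP11, on either strand, were in 4.76%, 3.70%, 1.59%, 1.06% and 1.06% of the members' promoters, against 7.26%, 1.85%, 1.24%, 0.849% and 0.225% of all promoters. For the members these shares rest on only 9, 7, 3, 2 and 2 of the 189 promoters. A match describes the letters of the window and does not show binding.

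Among the KRAB zinc finger genes of the run at 51.57 to 53.58 Mb, 3 rose. ZNF480 (ENSG00000198464, chromosome 19, 52297169 to 52325922, plus strand) had 11.4, 10.5 and 11.2 CPM in control and 16.5, 16.2 and 14.2 CPM in knockdown samples. Its log2 fold change was 0.50 (SE 0.0925, edgeR adjusted p = 0.0040). ZNF320 (ENSG00000182986, 52860851 to 52897693, minus strand) had 12.6, 10.5 and 10.8 CPM against 16.8, 16.9 and 14.1 CPM, a log2 fold change of 0.49 (SE 0.109, edgeR adjusted p = 0.0097). In both genes the third knockdown sample was the lowest of its group and still above every control sample. ZNF616 (ENSG00000204611, 52113091 to 52139938, minus strand), whose promoter match is shown above, had 6.32, 4.78 and 5.96 CPM against 8.93, 7.69 and 7.25 CPM, a log2 fold change of 0.48 (SE 0.139, edgeR adjusted p = 0.032). Its call was lost without control replicate 2 or 3 or knockdown replicate 1 or 2 (edgeR adjusted p = 0.10, 0.073, 0.11 and 0.079), with no filter (0.087) and after cyclic loess (limma, 0.075). ZNF331, an imprinted gene at the end of the same run, had 10.2, 8.76 and 8.88 CPM against 9.84, 9.0 and 9.47 CPM, with overlap between the groups (log2 fold change 0.02, edgeR adjusted p = 0.91).

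In the run at the chromosome end, ZNF544 (ENSG00000198131, 58228594 to 58277495, plus strand) had 21.2, 19.1 and 22.8 CPM in control and 29.6, 25.6 and 29.7 CPM in knockdown samples. By mean FPKM it was the highest of the called members of the run, with a log2 fold change of 0.43 (SE 0.0891, edgeR adjusted p = 0.0076). ZNF274 (ENSG00000171606, 58183029 to 58213562), its neighbour, encodes a KRAB protein known to bind the coding ends of other ZNF genes and to bring SETDB1 to them. It had 12.2, 16.5 and 11.9 CPM against 19.9, 19.1 and 15.5 CPM, so the groups overlapped and the test was narrowly missed (log2 fold change 0.42, SE 0.141, edgeR adjusted p = 0.058). It passed without control replicate 2 or knockdown replicate 3 (edgeR adjusted p = 0.015 and 0.034), with library size alone (0.038), a minimum mean count of 50 (0.042), the length offset (0.042) and DESeq2 (adjusted p = 0.011). In the other settings without a block it did not pass, with adjusted p up to 0.19 (without control replicate 3). ZNF550 (ENSG00000251369, 57535257 to 57559863, minus strand) had 6.09, 6.54 and 5.25 CPM against 9.35, 7.71 and 8.07 CPM, a log2 fold change of 0.49 (SE 0.127, edgeR adjusted p = 0.021). Its call was lost without control replicate 1 or 3 or knockdown replicate 1 (edgeR adjusted p = 0.052, 0.084 and 0.076) and with no filter (0.057).

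At 36.18 to 37.82 Mb, both called rises were large and in weakly expressed KRAB genes. ZNF607 (ENSG00000198182, 37696371 to 37719761, minus strand) had 3.01, 3.37 and 2.25 CPM in control and 5.32, 5.46 and 5.24 CPM in knockdown samples, 186% of the control mean. Its log2 fold change was 0.89 (SE 0.166, edgeR adjusted p = 0.0042). ZNF527 (ENSG00000189164, 37371061 to 37393066, plus strand) had 0.824, 1.01 and 1.47 CPM against 1.80, 2.53 and 1.93 CPM, a log2 fold change of 0.92 (SE 0.271, edgeR adjusted p = 0.035). The call of ZNF527 was lost without control replicate 1 or 2 or knockdown replicate 2 or 3 (edgeR adjusted p = 0.096, 0.10, 0.14 and 0.063), with no filter (0.094) and after cyclic loess (limma, 0.067), whereas that of ZNF607 held without any single sample. ZNF627 (ENSG00000198551, 11559374 to 11619124, plus strand), the called member of the run at 11.48 to 12.64 Mb, had 6.53, 6.51 and 6.78 CPM against 9.03, 9.76 and 9.77 CPM. The samples of each group lay close together, and its log2 fold change was 0.53 (SE 0.0973, edgeR adjusted p = 0.0041).

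ZNF114 and ZNF473 lie outside the 9 runs and have a KRAB domain, and they moved in opposite directions. ZNF114 (ENSG00000178150, 48270081 to 48287608, plus strand) had 27.8, 29.2 and 30.4 CPM in control and 33.4, 33.7 and 33.4 CPM in knockdown samples, a log2 fold change of 0.20 (SE 0.0569, edgeR adjusted p = 0.031). ZNF473 (ENSG00000142528, 50025714 to 50053414, plus strand), which takes part in the processing of histone pre-mRNA, had 20.7, 20.1 and 20.8 CPM against 17.9, 16.4 and 15.3 CPM, a log2 fold change of -0.31 (SE 0.081, edgeR adjusted p = 0.021). Both calls were lost in several fits with a sample left out. For ZNF114 the adjusted p from edgeR was 0.10, 0.080, 0.078, 0.095 and 0.065 without control replicate 1, control replicate 2 and knockdown replicates 1, 2 and 3. For ZNF473 it was 0.054, 0.056, 0.072 and 0.064 without control replicates 1 and 3 and knockdown replicates 2 and 3.

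Members of other kinds included the one with the smallest adjusted p and the most abundant of all. ZNF580 (ENSG00000213015, 55635016 to 55643469, plus strand), a small zinc finger protein without a KRAB domain, had 5.77, 6.45 and 6.55 CPM in control and 9.51, 9.68 and 10.6 CPM in knockdown samples. Its log2 fold change was 0.66 (SE 0.105, edgeR adjusted p = 0.0018). ZNF580 overlaps ZNF581 and CCDC106 on the same strand, so reads could have been split among them. ZNF581 had 7.16, 8.23 and 6.92 CPM against 7.69, 6.78 and 7.30 CPM, with overlap (log2 fold change -0.04, edgeR adjusted p = 0.87), and it was above 0 with library-size scaling (0.019) and on FPKM (0.015). The sum of both genes was 12.9, 14.7 and 13.5 CPM against 17.2, 16.5 and 17.9 CPM, which again did not overlap.

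ZNF146 (ENSG00000167635, 36214602 to 36238774, plus strand), a protein made almost only of zinc fingers, had 121, 118 and 121 CPM in control and 109, 108 and 111 CPM in knockdown samples. The fall was small and tight, to 91.1% of the control mean (log2 fold change -0.13, SE 0.0331, edgeR adjusted p = 0.016), and it missed the threshold without control replicate 3 or knockdown replicate 2 (edgeR adjusted p = 0.050 and 0.081). It was also missed, with a value nearer to 0, with library size alone (-0.08, edgeR adjusted p = 0.12), the GC offset (-0.08, 0.13), limma on FPKM (-0.09, 0.064) and limma after cyclic loess (-0.08, 0.14). ZNF428 (ENSG00000131116, 43607224 to 43619629, minus strand) had 10.4, 9.05 and 9.89 CPM against 12.2, 12.9 and 13.0 CPM, a log2 fold change of 0.38 (SE 0.0933, edgeR adjusted p = 0.017). ZNF358 (ENSG00000198816, 7515292 to 7521025, plus strand) had 6.92, 6.39 and 7.23 CPM against 8.36, 9.15 and 9.13 CPM, also a log2 fold change of 0.38 (SE 0.104, edgeR adjusted p = 0.027). These 2 calls were fragile. That of ZNF428 was lost without control replicate 2 or 3 or knockdown replicate 2 or 3 (edgeR adjusted p = 0.060, 0.051, 0.067 and 0.055), and that of ZNF358 without any control replicate or knockdown replicate 2 or 3 (0.067, 0.088, 0.055, 0.098 and 0.082), with no filter (0.052), with the GC offset (0.12) and after cyclic loess (limma, 0.081).

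ZNF837 (ENSG00000152475, 58367618 to 58381030, minus strand) had the largest called rise but few reads, and it was named after its values were seen. It had 9, 7 and 6 counts in control and 50, 18 and 24 counts in knockdown samples. No control sample reached the filter, so it was tested only because the knockdown samples are high, and the first knockdown sample was far above the others. Its log2 fold change was 1.89 (SE 0.595, edgeR adjusted p = 0.046), and the call was lost whichever sample was left out (edgeR adjusted p between 0.065 and 0.27), with no filter (0.082), with the GC offset (0.062) and after cyclic loess (limma, 0.088).

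**Figure D4:**
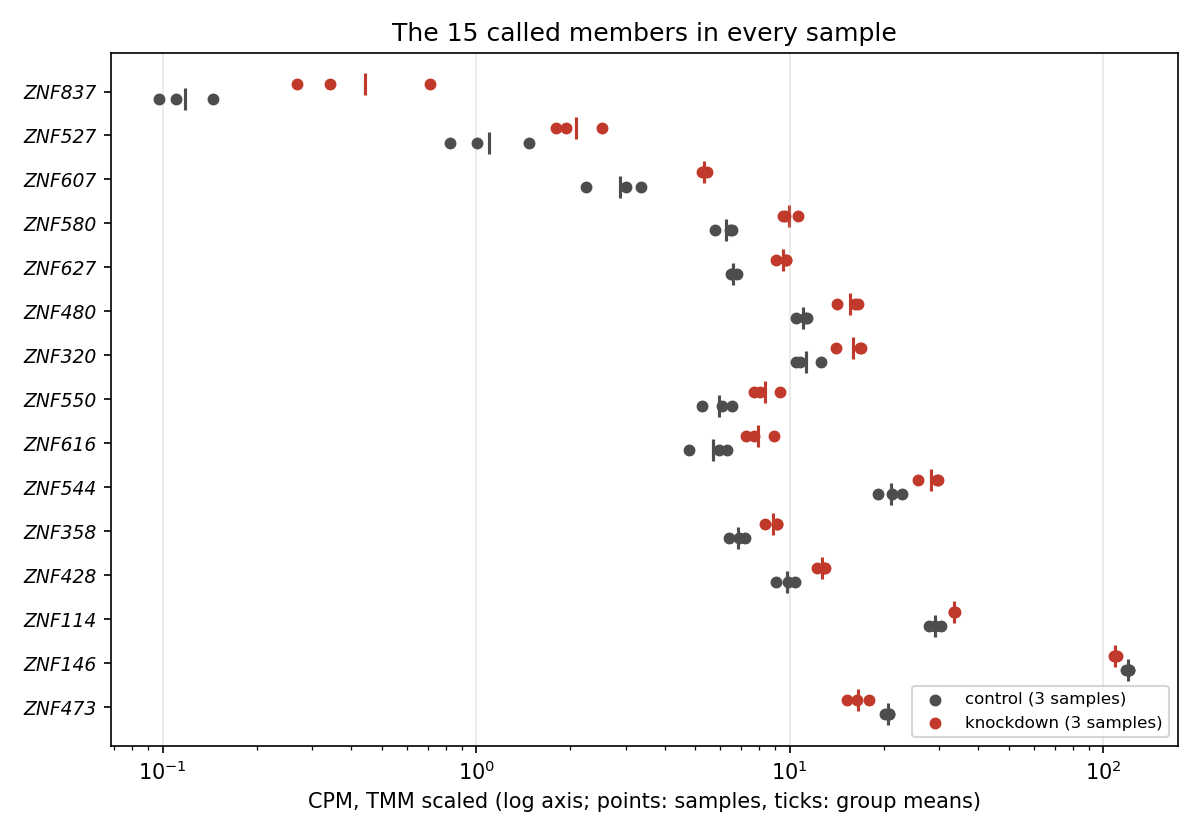
CPM of the 15 called members in every sample on a log axis (grey, control; red, knockdown; points, samples; ticks, group means). The groups do not overlap in any of the 15, and the spread between samples is widest in the weakly expressed ZNF837 and ZNF527.

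The 6 calls for ZNF480, ZNF320, ZNF544, ZNF580, ZNF607 and ZNF627 held in every fit with a sample left out. Of the 15 called members, 10 overlap another gene of the table. ZNF146, ZNF428, ZNF114, ZNF480, ZNF627, ZNF550, ZNF358, ZNF544 and ZNF473 have a partner on the opposite strand, and since the use of strand in the counting is not given in the sources used here, reads of a pair cannot be told apart. Adding the counts of any 1 partner left the groups of each called member without overlap.

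Other members known for a role were not called. ZNF91, which silences SVA elements, had 3.67, 3.93 and 2.90 CPM in control and 4.95, 3.73 and 3.87 CPM in knockdown samples, with overlap (log2 fold change 0.26, edgeR adjusted p = 0.34). ZNF224, a KRAB repressor, had 6.01, 5.14 and 5.36 CPM against 6.72, 6.87 and 6.42 CPM (log2 fold change 0.28, edgeR adjusted p = 0.12). ZNF444, a SCAN domain protein, had 11.2, 10.7 and 11.6 CPM against 12.4, 13.0 and 13.4 CPM (log2 fold change 0.21, edgeR adjusted p = 0.11). In these last 2 genes the groups did not overlap although the test was missed. ZNF45, ZNF787 and ZNF317 had log2 fold changes of 0.12, -0.01 and -0.06 (edgeR adjusted p = 0.49, 0.96 and 0.56), and ZNF787 turned to 0.05 with library-size scaling. ZNF93 and ZNF671 had no count in any sample, and ZNF154 and ZNF582 had at most 3 counts in every sample, which is the floor used here and covers counting error only. ZNF43 had 6 counts in knockdown sample 1 and 0 in the other samples.

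Among the cofactors through which KRAB proteins act, most did not pass the test. Of 23 genes in a list of this machinery, all tested, 4 rose and 5 fell, and 14 were not called. The share called was 39.1%, against 22.8% of all genes and 37.5% of all genes with a mean count of 1000 or more, the range in which all 23 lie, so it was close to the background at that abundance. CBX5, a heterochromatin protein, had 240, 220 and 226 CPM in control and 314, 306 and 289 CPM in knockdown samples (log2 fold change 0.41, edgeR adjusted p = 3.0e-04). EHMT2, a histone H3K9 methyltransferase, rose by 0.31 on the log2 scale (edgeR adjusted p = 3.3e-04), CBX1 by 0.17 (0.0081) and CHD3, a chromatin remodeller of the NuRD complex, by 0.14 (0.020). The falls were in MORC3 (-0.44, edgeR adjusted p = 5.9e-04), ATRX (-0.38, 0.0015), its partner DAXX (-0.24, 0.0063), ZFP57 (-0.24, 0.012), a KRAB protein of imprinted regions, and HDAC2 (-0.11, 0.026). The call of HDAC2 depended on the setting. It was lost with library size alone (-0.06, edgeR adjusted p = 0.22), the GC offset (-0.02, 0.64), the length offset (-0.04, 0.44), limma on FPKM (-0.06, 0.18) and limma after cyclic loess (-0.04, 0.42), and without control replicate 1 or 3 or knockdown replicate 2 or 3 (0.070, 0.068, 0.11 and 0.056). CHD3 lost its call with the GC offset (edgeR adjusted p = 0.077) and without control replicate 1 or 3 or knockdown replicate 1 or 2 (0.056, 0.077, 0.057 and 0.085), and ZFP57 without knockdown replicate 2 (0.055). TRIM28, the common corepressor, had 257, 260 and 262 CPM in control and 279, 279 and 274 CPM in knockdown samples. The groups did not overlap, and the test was narrowly missed (log2 fold change 0.09, SE 0.030, edgeR adjusted p = 0.051). It passed with DESeq2 (adjusted p = 0.011), library size alone (edgeR, 0.0070), a minimum mean count of 50 (edgeR, 0.037), the length offset (edgeR, 0.043) and limma on FPKM (0.0068). Over the alternatives the value of TRIM28 ran from 0.01 with the GC offset (edgeR adjusted p = 0.87) to 0.17 after cyclic loess (limma adjusted p = 0.0023). SETDB1 differed by 0.09 on the log2 scale (edgeR adjusted p = 0.21).

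Markers of the labelled cell type were uneven. Epithelial markers summed to 2440, 2470 and 2590 CPM in control and 2370, 2450 and 2500 CPM in knockdown samples, nearly all of it KRT8 and KRT18, and 0 of 4 were called. The 7 liver markers reported summed to only 13.8, 29.4 and 33.7 CPM in control and between 8.55 and 16.3 CPM in knockdown samples, with ALB the most abundant, and SERPINA1 and APOB fell. The call of APOB was lost without control replicate 2 or 3 or knockdown replicate 1 or 3 (edgeR adjusted p = 0.072, 0.087, 0.069 and 0.066). HNF4A, which encodes a defining hepatocyte transcription factor, stayed below 2 CPM in every sample. Among markers of other cells, CD68 rose and PTPRC had 8, 8 and 0 counts in control and none in knockdown samples. Of the 3 fibroblast markers, COL1A1 rose by 0.20 on the log2 scale and DCN stayed below 1 CPM in every sample. COL3A1 had 336, 0 and 48 counts in control and 42, 61 and 0 in knockdown samples, with overlap (log2 fold change -2.04, edgeR adjusted p = 0.34). CDH5 fell by 0.70 on the log2 scale, and PECAM1, the other endothelial marker, was not called. The part of these differences in the members' values was not tested.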

How the data were processed

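Total RNA of LM3 cells was read on an Illumina NovaSeq instrument, and HISAT2 was used for mapping. The submitters' processing notes name cutadapt 1.9, FastQC and GRCh38. The counting program, its use of strand and the annotation release are not given in the sources used here. The authors deposited 1 table with unnormalized counts and FPKM values for each gene, the latter scaled by the authors to gene length and library size. Positions matched GRCh38, as 99.88% of the 32092 genes also found in GENCODE release 29 lay over their GENCODE locus.

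In R 4.3.3, edgeR 4.0.16 was used for the filter on low counts (filterByExpr), TMM scaling and the quasi-likelihood test (glmQLFit, glmQLFTest) of the group term, with Benjamini-Hochberg adjustment over 18390 genes. CPM values use the same scaling. An SE was obtained by dividing the size of the log2 fold change by the root of F. With 3 samples against 3, an exact two-sided permutation test of 1 gene cannot go below 0.1. On simulated counts with known changes, the fit called 47.9% to 65.8% of the genes in each class of true change (0.6 or 1 on the log2 scale, up or down) with the true sign, and 7 of the 17671 that were not changed. The classes held only 60, 38, 48 and 48 genes, whereas 4192 genes were called in the data. The rates therefore do not measure the power for the members. Replicates of a group differed by more than sampling noise, so none was a repeat of another library.

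The members, lists and tests were chosen with earlier results of these data known. Genes named were ZNF706 and TRIM28, up to 10 largest rises and falls among called members with no overlap and a mean count of at least 50, the 5 members highest in FPKM, the called member with the smallest p in each run, members known for a role, and called members of the silencing machinery. ZNF837 and the markers stand outside this rule.

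Alternatives were DESeq2 1.42.0, its size factors, library size alone, no filter, a minimum mean count of 50, limma 3.58.1 on log2(FPKM + 0.1) where the mean FPKM was 1 or more, the replicate number as a block, each sample left out, GC and length offsets, the study's criteria (p below 0.05, taken as unadjusted, and a log2 fold change of 0.3 or more in size), a gap of 0.5 Mb and, added after seeing the data, limma after cyclic loess. The study's criteria were applied to the edgeR fit, not to DESeq2 as in the study. GC content and length are from the longest GENCODE transcript. Promoter sequences are from RefSeq (GRCh38.p14). Protein sequences were not analysed here. A marker from the liver list is not reported here.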

Additional observations from a re-analysis of the deposited data

How the results depend on the processing

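The 13 members called higher became 8 with no filter, 21 by the study's criteria and 7 to 12 with a sample left out (7 without knockdown replicate 2). The 2 called lower became 1 with library size alone, limma on FPKM, the GC offset, cyclic loess and the study's criteria, and 0 to 2 with a sample left out (0 without control replicate 3 or knockdown replicate 2). The median log2 fold change of the members was 0.21 with library size alone, 0.21 with the GC offset and 0.085 after cyclic loess, and between 0.12 and 0.20 with a sample left out. ZNF320, ZNF480, ZNF544, ZNF580 and ZNF627 kept their call in all 16 alternatives run, and ZNF607 in all 15. Among the named genes, the values that changed sign were of genes not called. ZNF787 was 0.046 with library size alone, 0.041 on FPKM and -0.066 to 0.028 with a sample left out. ZNF581 was 0.019, 0.015 and -0.087 to 0.042 in the same settings, and ZNF331 was -0.061 after cyclic loess and -0.019 to 0.094 with a sample left out. The medians of the runs at 2.82 to 2.94, 11.48 to 12.64 and 55.48 to 58.48 Mb also changed sign in some settings, as given with the runs.

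The replicate numbers do not pair the samples, since deviations of same-numbered samples correlated by 0.0344, -0.0363 and -0.0156 and 2 of 6 samples correlated best with their own number. With the replicate block, 13 members were higher and 2 lower, the median was 0.17, ZNF837 lost its call (edgeR adjusted p = 0.081) and ZNF274 gained one (0.022). Depth limits the 18 tested members below 50 counts most, and the 66 members not tested carry no statement about change.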
